A study of Gallus gallus with 3 samples.

Results

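AGR3, SLC1A3, SPARCL1, FABP7 and SPP1 are genes of secreted or metabolic proteins that are grouped here as supporting cell genes. Supporting cells are the non-sensory cells that surround the hair cells of the inner ear. All 5 genes were found by symbol among the 30108 genes of the deposited tables, each with 1 gene identifier. RNA was sequenced from a patched vestibular type I hair cell of a chicken embryo at embryonic day (E)20, from a patched vestibular type II hair cell at E19, and from whole vestibular cristae, the sensory ridges of the semicircular canals, pooled from embryos at E16. The embryos were of the Isa Brown strain and of either sex, no genotype or treatment set the libraries apart, and the type of each hair cell came from its electrophysiology. There was 1 library of each kind, so that values are given without replicates or tests and every interval below covers counting error only. The hair cell libraries each hold the aspirated content of a single cell, whereas the crista library holds hair cells, supporting cells and the other cells of the organ. In the whole crista a low level of a gene can come from few cells of a type or from little RNA in each, and these cannot be told apart. Age, cell mixture and read layout differ between the hair cells and the crista, the sources differ on whether the amplification kit does, and their parts in a difference cannot be told apart either.

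Supporting cells hold the hair cells in place, secrete the extracellular matrices over the epithelium, and clear ions and transmitter from around the hair cells. Type I hair cells are enclosed by a calyx-shaped afferent terminal and type II hair cells are contacted by bouton terminals. AGR3 belongs to the protein disulphide isomerase family of the secretory pathway, whose members assist folding of secreted proteins. SLC1A3 is the glutamate transporter GLAST, found in astrocytes and in supporting cells of the mammalian inner ear, where it takes up glutamate released by hair cells. FABP7 is a cytoplasmic fatty acid binding protein of radial glia and Schwann cell precursors. SPARCL1, also called hevin, is a secreted matricellular glycoprotein of the SPARC family. SPP1, osteopontin, is a secreted phosphoprotein of bone matrix and many epithelia that binds integrins and CD44. It is not a marker of supporting cells alone, since the paper cites work in mice that found it only in type I hair cells.

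The 5 genes divided into those read in both hair cells and those read in neither or nearly so (plot of the levels by library). AGR3 and SLC1A3 had over 1000 reads in each hair cell. SPP1 had 2 reads in the type I and 1 read in the type II cell, and SPARCL1 and FABP7 had none. All 5 were read in the whole crista, from 507 reads of SPARCL1 to 113537 reads of AGR3. Counted at 1 read, 3 of 5 genes were detected in the type I cell, 3 of 5 in the type II cell and 5 of 5 in the crista, against 7.77%, 7.91% and 59.8% of all genes. With at least 10 reads the count was 2, 2 and 5. Most genes of the crista were missing from the cells: of 16157 genes with at least 10 reads in the crista, 13.6% had a read in the type I cell, 13.8% had one in the type II cell, and 84.6% had none in either.

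**Figure D1:**
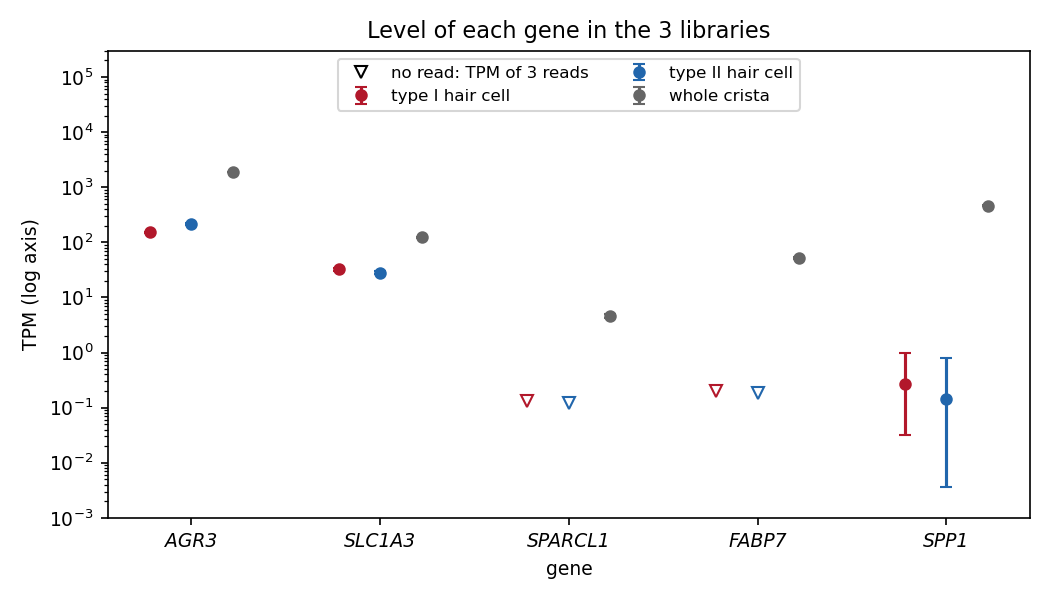
Level of each gene in TPM, the transcripts of a gene relative to all transcripts of the library corrected for length (log axis) in the type I cell, the type II cell and the whole crista, 1 library each, with exact Poisson 95% intervals of the reads as bars; open triangles stand at the TPM of 3 reads for a gene with none. AGR3 and SLC1A3 lie between 28.3 and 216 TPM in the hair cells, and the crista point is the highest for each of the 5 genes.

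The libraries held 10779664 estimated reads for the type I cell, 11943061 for the type II cell and 67428006 for the whole crista, and a count of 0 allows up to 3 reads, or 0.278, 0.251 and 0.0445 CPM, the reads scaled to library size alone. Mitochondrial genes took 5.50%, 7.38% and 0.879% of the reads. Genes were detected in numbers of 2340, 2381 and 18001. HPRT1, a purine salvage enzyme gene that most cells use, had no read in either hair cell and 4593 reads in the crista, so that a gene listed at 0 in a hair cell library sets no limit on the RNA of the cell.

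Both cell labels were set against marker lists (plot of the marker lists). The counts here and in the next paragraph stand beside a background share. Of genes with at least 10 reads in the crista, 13.6% had a read in the type I cell and 13.8% in the type II cell. Hair cell markers were detected for 10 of 22 genes in the type I cell, 9 of 22 in the type II cell and 22 of 22 in the whole crista. OCM1, a calcium buffer of hair cells, had 29368, 23580 and 3289 TPM. The other detected hair cell markers went both ways against the crista. The potassium channel gene KCNA10 had 323, 348 and 1.45 TPM, whereas MYO6 had 37.2, 45.7 and 159 TPM. CHRNA9, LOXHD1 and STARD10 were also below the crista in both cells. Several defining hair cell genes, among them MYO7A, POU4F3, CALB2 and ESPN, had no read in either cell. Supporting cell markers other than the 5 genes were detected for 4 of 22 genes in the type I cell, 3 of 22 in the type II cell and 22 of 22 in the crista, with summed levels of 553, 547 and 5192 TPM. The connexin gene GJB6 and the transcription factor gene SOX9 carried nearly all of that sum in the hair cells. GJB6 had 349, 374 and 1316 TPM in the type I cell, the type II cell and the crista, and SOX9 had 201, 170 and 74.8 TPM. The lower GJB6 level of the hair cells depended on the scale. Type I and type II ratios of GJB6 to the crista were 0.265 and 0.284 in TPM, but 0.973 and 0.992 in CPM. SOX9 was above the crista on both scales, with CPM ratios of 3.87 and 3.07. ZPLD1, a gene of the cupula matrix, had 3.06, 3.28 and 2557 TPM, and LFNG, a modifier of Notch receptors, had 1 read in the type I cell, none in the type II cell and 7708 in the crista. SOX2, TECTA, OTOG, OTOA, JAG1, HES1 and the remaining supporting cell genes were at 0 in both hair cells. The paper nevertheless lists SOX2 as present in both cells, and the source of this difference was not tested.

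**Figure D2:**
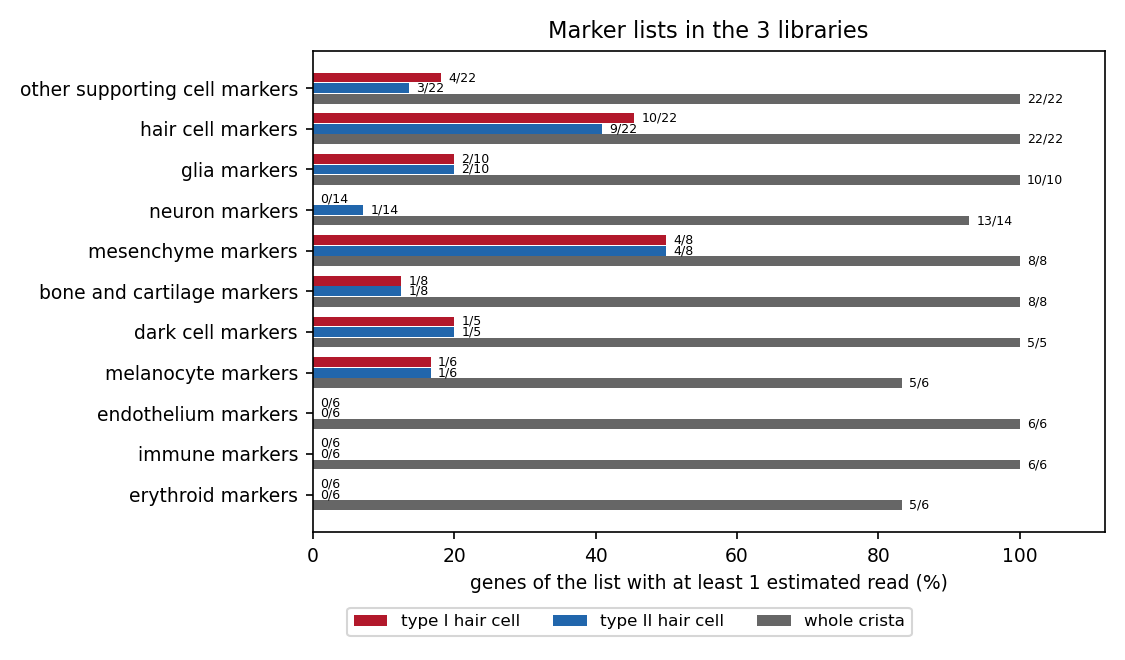
Share of the genes of each marker list that had an estimated read or more in the type I cell, the type II cell and the whole crista (bars, % from 0), with the count over the matched genes beside each bar. Mesenchyme and hair cell lists have the largest shares in the hair cells, and the endothelium, immune and erythroid lists have no gene detected in either hair cell.

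Markers of other cells were also counted in the hair cell libraries. Glia markers were detected for 2 of 10 genes in both hair cells and 10 of 10 in the crista. SOX10, a transcription factor of glia and of otic epithelium, had 70.8, 86.7 and 52.9 TPM, whereas the myelin genes MBP and PMP22 and the glial gene S100B were at 0 in both hair cells. Mesenchyme markers were detected for 4 of 8 genes in each hair cell, with summed levels of 488, 375 and 2873 TPM. Among them the collagen genes COL1A1 and COL1A2 led, and COL3A1, DCN, PDGFRA and TBX18 were at 0. COL1A1 had 397 and 307 TPM in the type I and type II cell, close to the 356 TPM of the crista. COL1A2 had 82.9 and 62.2 TPM, against 1174 TPM in the crista. Neuron markers were detected for 0 of 14 genes in the type I cell, 1 of 14 in the type II cell and 13 of 14 in the crista, and dark cell and melanocyte lists had 1 gene each in both hair cells. The part of RNA from neighbouring cells in the levels of the 5 genes was not tested.

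AGR3 (ENSGALG00010004391, chromosome 2, bases 28495988 to 28519374 of GRCg7b) had the highest level of the 5 genes in each library. It had 2816 reads in the type I cell (95% interval 2713 to 2922), 4519 reads in the type II cell (4388 to 4653) and 113537 reads in the whole crista, or 151, 216 and 1919 TPM. It ranked 658th of the 2340 genes detected in the type I cell, 602nd of 2381 in the type II cell and 43rd of 18001 in the crista by TPM. Its share of all reads was 0.0261%, 0.0378% and 0.168%. In the crista AGR3 was thus among the most abundant transcripts, and in the hair cells it stood within the upper 28.1% and 25.3% of detected genes. The paper also lists AGR3 in both hair cells. It sets AGR3, like GJB6, among its discrepancies with earlier work that placed these genes in supporting cells.

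Between the hair cells AGR3 was lower in the type I cell, where its TPM was 0.700 of that in the type II cell (0.668 to 0.734 by counting error). Over the 1687 genes that had 10 reads or more in both cells the median ratio was 1.08 and the SD of the log2 ratio was 0.50 (plot of the ratios between the hair cells). AGR3 lay 0.62 below that median on the log2 scale, or 1.24 SD, with 5.93% of the genes lower. Among the 879 genes whose reads reached 1000 in both cells, a limit chosen after the values were seen, the SD was 0.31 and AGR3 lay 1.44 SD below the median with 6.14% of the genes lower. The ratio was 0.690 in CPM and 0.595 when reads were scaled by the median ratio of the genes, so that it did not reach 2-fold on any scale, and it is a difference between 2 cells, of which the type I cell was 1 day older.

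**Figure D3:**
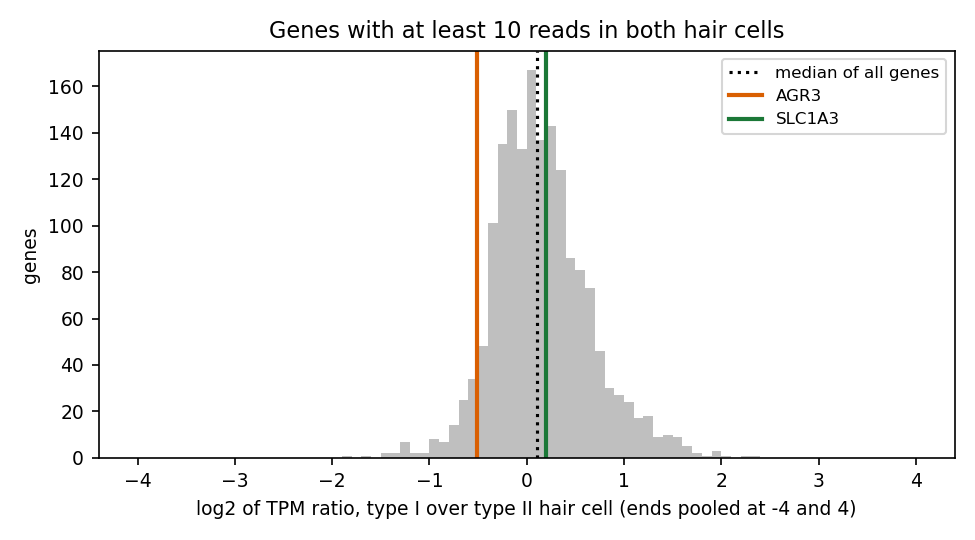
Number of genes by the log2 ratio of TPM in the type I over the type II cell, for 1687 genes that had 10 reads or more in each, in bins of equal width. The AGR3 line stands left of the median at a ratio of 0.700 and the SLC1A3 line just right of it at 1.15, with 5.93% and 57.9% of the genes to their left.

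Against the whole crista AGR3 was 12.7-fold lower in TPM in the type I cell (counting interval 12.2 to 13.2) and 8.88-fold lower in the type II cell (8.62 to 9.15). In CPM, which leaves out length, the folds were 6.45 and 4.45. The effective length that the deposited TPM divide by was 1994 and 2095 bases for AGR3 in the hair cells and 1431 bases in the crista, while the transcript length was 2075, 2075 and 2080 bases. Direction and the 2-fold limit held on both scales, and the size did not. Of 16177 genes with at least 10 reads in either library, 87.4% were at least 2-fold lower in the type I cell than in the crista. For the type II cell it was 88.0% of 16174. These shares include the genes with no read in the hair cell, which were set to 3 reads. Among the 1751 and 1696 genes that had 10 reads or more in both libraries of a pair, the median ratio to the crista was 0.921 and 0.929 in TPM. In CPM it was 1.36 and 1.26. Of these genes, 19.6% lay below AGR3 in the type I over crista ratio and 23.9% in the type II over crista ratio.

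AHR1A, an aryl hydrocarbon receptor gene, spans AGR3 in the RefSeq annotation. It had 0, 0 and 5504 reads in the type I cell, the type II cell and the crista. The libraries do not mark strand, and reads of AGR3 and AHR1A cannot be told apart where their exons overlap. AGR2, the paralogue 22384 bases away, had no read in either hair cell and 1673 reads (71.3 TPM) in the crista. Zeros in both hair cells were common, as found for 84.6% of genes with at least 10 reads in the crista. Any part of misassigned reads in the AGR3 counts was not tested.

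SLC1A3 (ENSGALG00010013632, chromosome Z, bases 11722312 to 11786640) was also read in each library. It had 1168 reads in the type I cell (1102 to 1237), 1161 in the type II cell (1095 to 1230) and 16593 in the whole crista, or 32.5, 28.3 and 123 TPM. By TPM it ranked 982nd of 2340 detected genes in the type I cell, 987th of 2381 in the type II cell and 1439th of 18001 in the crista, or within the upper 42.0%, 41.5% and 7.99%. By reads the ranks were 858, 866 and 671. The type I over type II ratio was 1.15 (1.06 to 1.25), with 57.9% of the 1687 genes below it. The paper does not give the sex of either cell, and any part of sex in the ratio of this chromosome Z gene was not tested. Among the 879 genes whose reads reached 1000 in both cells SLC1A3 lay 0.841 SD above the median, with 79.6% of the genes below it. Its direction depended on the scaling, since the ratio was 1.11 in CPM but 0.960 when reads were scaled by the median ratio of the genes. A lncRNA gene, LOC112530586, overlaps the end of SLC1A3 in RefSeq, and reads of the pair cannot be told apart without strand.

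In the hair cells SLC1A3 was 3.78-fold lower in the type I cell than in the crista in TPM (3.56 to 4.01), and 4.34-fold lower in the type II cell (4.09 to 4.61). The CPM folds were 2.27 and 2.53. Of the genes read in both libraries of each pair, 33.6% lay below SLC1A3 in the type I over crista ratio and 31.8% in the type II over crista ratio. AGR3 exceeded SLC1A3 4.65-fold in TPM in the type I cell and 7.65-fold in the type II cell, against 15.6-fold in the crista. The pair therefore lay closer together in the hair cells than in the crista, and AGR3 made 82.2%, 88.4% and 74.8% of the summed TPM of the 5 genes.

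**Figure D4:**
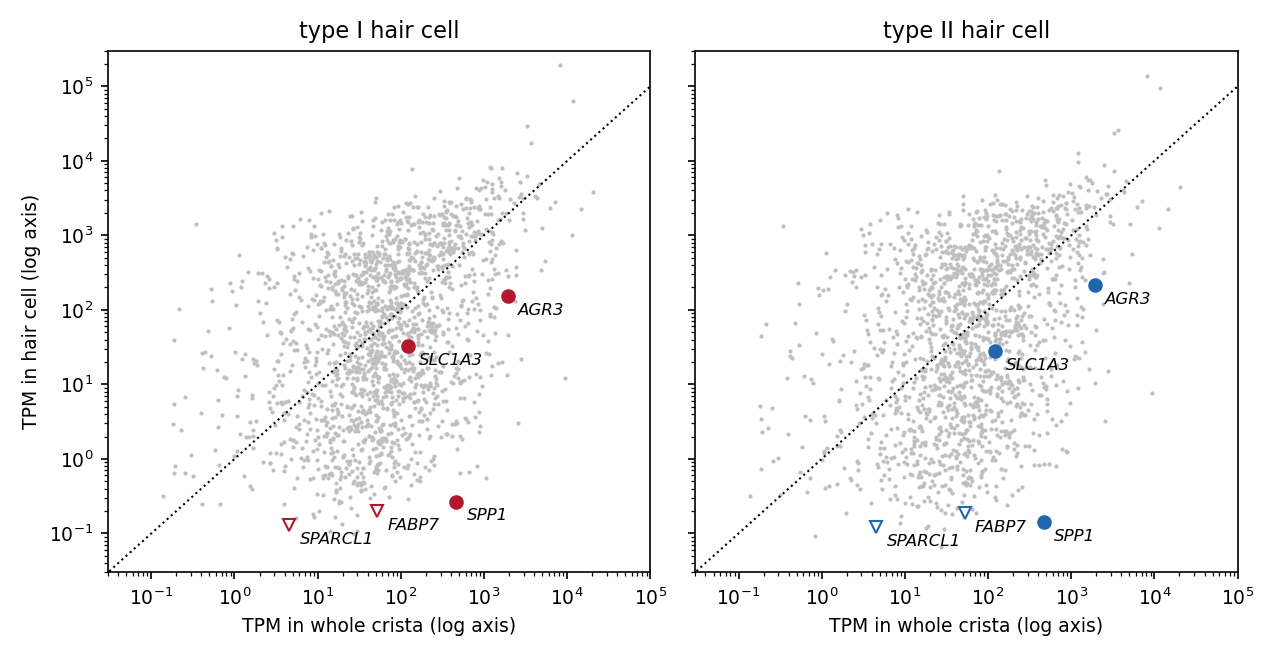
TPM in the type I (left) and the type II cell (right) against TPM in the whole crista (log axes), with grey points for the 1751 and 1696 genes that had 10 reads or more in both libraries, coloured points for AGR3, SLC1A3 and SPP1, open triangles at the TPM of 3 reads for SPARCL1 and FABP7, and a dotted line of equal TPM. All 5 genes lie below the line in both panels, with AGR3 and SLC1A3 inside the cloud of genes. SPP1 had 2 and 1 reads in the hair cells, under the 10 reads that grey points needed. Genes read as little are left out of the cloud, so its place against the cloud is not a result.

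SPP1 (ENSGALG00010003220, chromosome 4, bases 45233954 to 45237015) ranked second of the 5 genes in the whole crista by TPM, but after SLC1A3 by reads, with 15392 reads and 466 TPM. It was the 328th gene of the crista library by TPM and the 752nd by reads. The type I cell had 2 reads (0.242 to 7.22), or 0.266 TPM, and the type II cell had 1 read (0.0253 to 5.57), or 0.142 TPM. Both counts lie under the limit of 3 reads that a count of 0 allows. The type I over type II ratio of 1.88 had a counting interval of 0.0980 to 111, so that no difference was detectable at this depth. The paper marks SPP1 for the type I cell alone in its list of transcripts, while its discussion places SPP1 in both cells. In the deposited counts this rests on 2 reads against 1. The ratio to the crista was 0.000572 (6.92e-05 to 0.00207) in the type I cell and 0.000304 (7.69e-06 to 0.00169) in the type II cell.

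FABP7 (ENSGALG00010012780, chromosome 3, bases 60863627 to 60867040) had no read in either hair cell and 4699 reads (4566 to 4835) in the whole crista, or 52.2 TPM. At the limit of 3 reads per library, 0.197 and 0.186 TPM, it was 265-fold lower in the type I and 280-fold lower in the type II library. The 95% counting intervals reached down to 215-fold and 228-fold, and the CPM folds were 250 and 277. These are bounds on the libraries and not on the RNA of the cells. SPARCL1 (ENSGALG00010003771, chromosome 4, bases 45260285 to 45274222) also had none in the hair cells, and it had the lowest level of the 5 genes in the crista with 507 reads (464 to 553), or 4.55 TPM. At the same limit SPARCL1 was 35.1-fold lower in the type I and 37.3-fold lower in the type II library. The 95% counting intervals reached down to 28.5-fold and 30.3-fold, and the CPM folds were 27.0 and 29.9. SPP1 and SPARCL1 lie on the same chromosome with 3 genes, MEPE, IBSP and DMP1, in the 23269 bases between them, yet their crista levels differed by 466 against 4.55 TPM. The genes flanking SPP1 and SPARCL1, PKD2 and NUDT9, had 4126 and 2114 reads in the crista and none in the hair cells, and those flanking FABP7, SMPDL3A and PKIB, were at 0 in the hair cells as well. Such zeros were common, since 84.6% of genes with at least 10 reads in the crista had no read in either hair cell.

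In the whole crista the order by TPM was AGR3, SPP1, SLC1A3, FABP7 and SPARCL1, with no overlap of counting intervals between neighbours. By reads SLC1A3 stood before SPP1, with 16593 against 15392 reads, so that the order of this pair depended on the scale. In the hair cells it was AGR3, SLC1A3 and then SPP1, whose interval reached below the limits of FABP7 and SPARCL1. Between the hair cells only AGR3 and SLC1A3 had the 10 reads needed for a count of 2-fold differences in TPM, and 0 of these 2 genes passed, where 9.57% of 1797 genes that reached 10 reads in at least 1 cell were higher in the type I cell and 2.17% lower. Against the crista 0 of the 5 genes were at least 2-fold higher in a hair cell, beside 4.39% of genes for type I and 4.32% for type II. All 5 were at least 2-fold lower in each, beside the 87.4% and 88.0% given above, shares that include genes with no hair cell read. With a 4-fold limit SLC1A3 passed in the type II but not in the type I cell.

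The families of the 5 genes were read in the same way (plot of the families). Their counts stand beside the 13.6% and 13.8% of genes with at least 10 crista reads that had a read in the type I and type II cell. Of 15 other genes of the protein disulphide isomerase family, the family of AGR3, 7 were detected in the type I cell, 7 in the type II cell and 15 in the crista, with summed levels of 174, 148 and 3777 TPM. P4HB, the protein disulphide isomerase itself and a subunit of the collagen prolyl hydroxylase, had 269 and 186 reads in the hair cells, against 112038 in the crista, or 13.4, 8.88 and 1220 TPM. PDIA6 and PDIA4, oxidoreductases of the endoplasmic reticulum, had 300 and 218 reads in the type I cell, and 243 and 153 in the type II cell. TMX1, a membrane-bound thioredoxin-like member, had the reverse pattern with 2352 and 2151 reads in the hair cells, against 45 in the crista, or 131, 119 and 0.531 TPM. AGR3 therefore had the highest level of its family in both hair cells and in the crista.

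**Figure D5:**
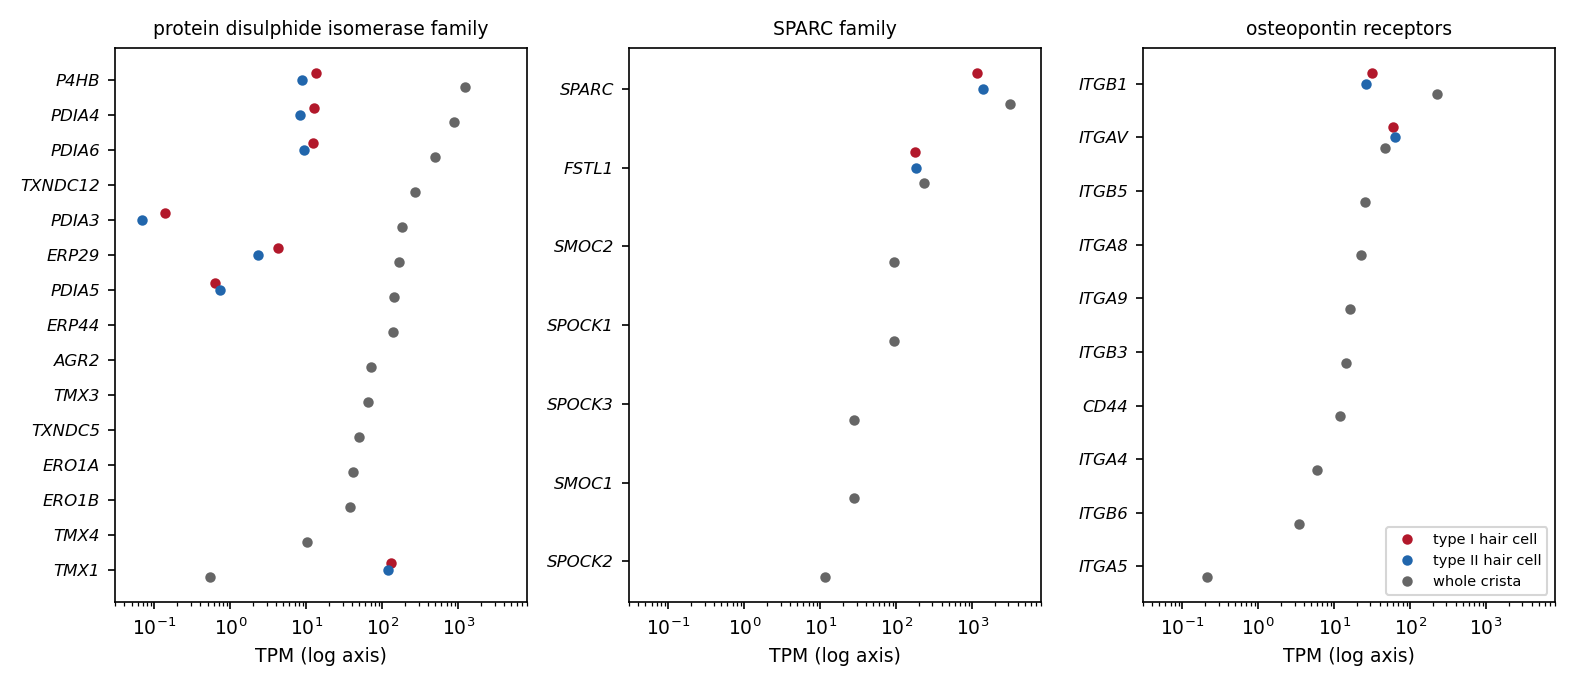
TPM (log axis) of each gene of the protein disulphide isomerase family, the SPARC family and the osteopontin receptors in the type I cell, the type II cell and the whole crista, with a point for each library in which the gene had at least 1 read and no point otherwise. Most genes have a crista point alone, and TMX1 is the gene with hair cell points far above that of the crista.

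Of 16 listed genes of glutamate transport and the glutamine cycle other than SLC1A3, 11 were matched by symbol. Of these 11, 1 was detected in the type I cell, 2 in the type II cell and 10 in the crista. The background shares in the hair cells, among genes with at least 10 reads in the crista, were 13.6% and 13.8%. GLUL, glutamine synthetase, had 6 reads in the type I cell, 1 in the type II cell and 4591 in the crista, and the neutral amino acid transporter gene SLC1A4 had 2 reads in the type II cell and 4301 in the crista. The glutamate transporter genes SLC1A1, SLC1A2 and SLC1A6 were at 0 in both hair cells, with 6.41, 15.4 and 3.51 TPM in the crista, and SLC1A7 was at 0 in each library. SLC17A8, the vesicular glutamate transporter of hair cells in mammals, was at 0 in the hair cells and had 28.5 TPM in the crista. The glutamine transporter gene SLC38A2 had the highest crista level of the list, 187 TPM, and no read in the hair cells.

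The SPARC family held 2 genes with high levels in the hair cells, while SPARCL1 had none. SPARC, a secreted collagen binding glycoprotein, had 21479 and 24942 reads in the type I and type II cell, against 263229 in the crista, or 1172, 1400 and 3151 TPM. FSTL1, a secreted follistatin-like member, had 176, 181 and 232 TPM. Type I and type II ratios of FSTL1 to the crista were 0.756 and 0.780 in TPM, but 1.06 and 0.980 in CPM. SPOCK1, SPOCK2, SPOCK3, SMOC1 and SMOC2 were at 0 in both hair cells, with 11.7 to 93.8 TPM in the crista. In the crista SPARCL1 was the lowest of the family at 4.55 TPM.

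None of the 10 other matched intracellular lipid binding genes was read in a hair cell, and 8 of 10 were read in the crista with a sum of 587 TPM. No read in either hair cell was the common outcome, found for 84.6% of all genes with at least 10 reads in the crista. FABP5, FABP3, CRABP1 and FABP4, carriers of fatty acids or retinoic acid, had 161, 152, 139 and 102 TPM there, each above the 52.2 TPM of FABP7. The bone phosphoprotein genes next to SPP1 were read in the crista alone, IBSP with 43.0 TPM and MEPE with 0.325 TPM, both below SPP1. Of the bone and cartilage markers, 1 of 8 was detected in each hair cell, the collagen gene COL9A1 of cartilage and otic matrices with 440 and 426 TPM, against 1199 TPM in the crista. The bone genes RUNX2, ALPL and BGLAP were at 0 in the hair cells.

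Of 10 osteopontin receptor genes, 2 were detected in each hair cell and 10 in the crista, beside the background shares of 13.6% and 13.8% in the hair cells. ITGAV, the integrin subunit alpha V, had 60.0 and 63.7 TPM in the type I and type II cell, against 46.1 TPM in the crista. ITGB1, the beta 1 subunit that pairs with it, had 31.6 and 26.4 TPM in the hair cells, against 226 TPM in the crista. CD44 was at 0 in both hair cells and had 12.0 TPM in the crista. The ligand gene SPP1 was thus near 0 in libraries where both genes of 1 receptor pair had about 1000 reads or more.

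The genes of most like pattern were taken as the 3 nuclear genes with a symbol nearest in log2(TPM + 1) over the 3 libraries. For AGR3 they were CNBP, PPIA and RPL8, at distances of 0.81, 0.93 and 0.93. CNBP, a nucleic acid binding protein gene, had 163 and 200 TPM in the type I and type II cell, against 1103 TPM in the crista. For SLC1A3 they were CRYAB, TMEM184B and PSMD1, at 0.17, 0.23 and 0.33. CRYAB, a small heat shock protein gene, had 29.4 and 26.5 TPM in the hair cells, against 126 TPM in the crista. For SPP1 they were PTMS, AKR1A1 and TUBB2B, at 0.18, 0.28 and 0.31. PTMS had 3 reads in each hair cell and 21573 in the crista. Over 3 libraries such likeness is a description only, and the number of genes that share it was not counted. SPARCL1 and FABP7, read in the crista alone, were not matched.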

How the data were processed

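Hair cells were recorded in situ and their content was drawn into the patch pipette. Per the labels, cDNA was made with the SMART-Seq v4 kit, and the methods name another SMART-Seq kit for the crista. Hair cell reads were single and crista reads paired. The methods name the DRAGEN RNA pipeline and Ensembl GRCg7b for the crista, and the submitters' processing notes name DRAGEN and bcl2fastq 2.20.0.422 for all libraries. For each of the 30108 genes the tables deposited by the authors hold an estimated count, not normalized, the TPM, and the transcript and effective lengths. Symbols were given for 15097 genes, and 13902 matched 1 gene of RefSeq (GRCg7b), which gave coordinates.

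A gene was detected with at least 1 estimated read. Reads have exact Poisson 95% intervals (rounded counts), ratios the exact interval of a ratio of counts, and a count of 0 a limit of 3 reads per library. Ratios were counted as past 2-fold among genes with at least 10 reads in either library. PCR reads are not independent molecules, so intervals cover counting error only. The ratio script was tested on simulated Poisson counts with equal effective lengths. Such a test checks the code and cannot show how the intervals hold for amplified libraries. With 1 library per group, no model across genes was fitted. The alternatives were other detection thresholds, CPM, CPM without the 13 mitochondrial genes, scaling by the median ratio, folds of 1.5 and 4, and gene filters of 1 and 100 reads.

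The 5 genes and the lists were chosen with earlier results of these data known. Named were the 5 genes, list genes detected in a hair cell or most abundant of their list (at most 6 per list), and the 3 nearest genes in log2(TPM + 1). Other genes, including those listed at 0 and the neighbours on the chromosome, were chosen after their values were seen. No sequence is shown, and single values of some glia markers are not reported here. Intervals came from scipy 1.17.1, tables from pandas 2.3.3 and numpy 2.4.6, and plots from matplotlib 3.10.9, run in Python 3.11.15.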

Additional observations from a re-analysis of the deposited data

How the results depend on the processing

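No paired analysis was possible because each group has 1 library and no result comes from a test. The count of the 5 genes at least 2-fold apart moved by less than 1.5 times under every alternative run, and it stayed at 0 between the hair cells. Each alternative changed 1 setting alone. In CPM the type I over type II ratio of SPP1 was 2.22, on 2 reads against 1, and the filter of 10 reads kept it out. Scaled by the median ratio, AGR3 was 1.68-fold lower in the type I cell, past the 1.5-fold limit that was run in TPM only. By reads in place of TPM the crista rank moved to 671 for SLC1A3, against 1439, and to 752 for SPP1, against 328. The count of all genes at least 2-fold higher in the type I than in the type II hair cell, 172, was 368 at 1.5-fold, 30 at 4-fold, 409 with at least 1 read and 29 with at least 100 reads in either cell, and the count lower, 39, was 96, 10, 258 and 14. For these ratios a count of 0 was set to 3 reads. The 409 and 258 can therefore include genes with 1 read that were counted as higher in the cell that had none. With at least 1 read in either library, the genes counted as at least 2-fold higher in a hair cell than in the crista numbered 2129 for type I and 2120 for type II, against 710 and 699. The larger counts include genes with no read in the hair cell, set to 3 reads against a few in the crista. Of the 2340 and 2381 genes read in the hair cells, 2190 and 2222 had at least 10 reads in the crista. Of the 3 genes of like pattern, none was kept for AGR3, SLC1A3 or SPP1 with log2(CPM + 1), that is 0 of 3 each, and 1 was kept for SPP1 with a pseudocount of 0.1. Of 39 alternative ratios of the 5 genes, 21 stayed within the counting interval, 18 moved and none reversed a ratio past 2-fold; SLC1A3 between the hair cells, never past 2-fold, changed side of 1 under median ratio scaling.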

Other observations

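Further genes were chosen after their values were seen, of which FABP9 and LBFABP belong to the lipid binding family and COCH to none of the families above. FABP9, a fatty acid binding protein gene that was not in the list above, had no read in either hair cell and 38331 reads in the whole crista, and its 974 TPM exceeded the 161 TPM of FABP5, the highest of the listed lipid binding genes. LBFABP, a liver-type member of birds, had 1 read in the type I cell, none in the type II cell and 19 in the crista. COCH, the gene of the secreted matrix protein cochlin of the inner ear, had 30492 reads in the type I cell, 41309 in the type II cell and 1404030 in the crista, or 1007, 1238 and 11434 TPM. Its TPM followed the same order of libraries as that of AGR3. The shares of genes lower in a hair cell, given above, include genes with no hair cell read, whereas COCH was read in both cells.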
